A study of Mus musculus with 9 samples.

Results

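Trib3, Chac1, Ddit4, Sesn2, Nupr1, Gdf15, Vldlr, Stc2 and Eif4ebp1 are outputs of the integrated stress response that feed back on the response or limit growth. They were listed by name, with earlier results of these data known, and make up 9 of the 55487 genes in the count tables. Each symbol matched 1 Ensembl gene on mm10, and 0 of the 9 share exon sequence with another gene. RNA came from J774A.1 cells, a mouse macrophage line. One group carried a control guide RNA called safe, with the genotype label WT, and the others carried sgRNA 11 or sgRNA 15 against Slc12a9, a member of the cation-chloride cotransporter family. The genotype label gives knockdown for both Slc12a9 guides, while the series' design text speaks of knockout. All 3 groups were grown with serum and glutamine, then kept in medium lacking both for 6 h, and each gave 3 libraries, 9 in all. The labels do not say whether replicates were separate cultures or how many clones a guide group holds. The p-values therefore weigh group differences only against the scatter of these samples, and that scatter may be technical.

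In the integrated stress response, kinases such as GCN2 and PERK sense amino acid shortage or misfolded protein and phosphorylate the translation factor eIF2. General translation falls, while the mRNA of the transcription factor ATF4 is translated better. ATF4 then switches on genes that supply amino acids and, beside them, genes that feed back on the response or hold growth back. The latter include inhibitors of AKT and of mTORC1, the kinase complex that drives protein synthesis and growth, a binding protein that blocks cap-dependent translation, an enzyme that breaks down glutathione, and secreted hormones. Macrophages take up and use much glutamine.

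Promoter sequence near the start sites is shown first because 4 of the 9 genes hold the composite C/EBP-ATF element there. The search covered RefSeq promoter windows on GRCm38.p6, from 250 bases before to 50 bases after each start, on both strands, for TGATGNAA. RefSeq windows were found for 8 of the 9 genes, 10 windows in all, and not for Eif4ebp1. The element occurred in 4 of the 10 windows, against 3.97% of all 32851 windows. Capitals mark the match, here read on the strand opposite to TGATGNAA, and each line runs 5′ to 3′ on the gene's own strand.
Chac1, chr2:119350992-119351116, plus strand: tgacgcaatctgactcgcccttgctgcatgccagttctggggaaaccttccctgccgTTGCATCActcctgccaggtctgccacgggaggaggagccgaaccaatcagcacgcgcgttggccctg
Trib3, chr2:152344028-152344057, minus strand: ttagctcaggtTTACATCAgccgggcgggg
Nupr1, chr7:126625562-126625591, minus strand: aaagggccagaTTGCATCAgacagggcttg
Vldlr, chr19:27216809-27216838, plus strand: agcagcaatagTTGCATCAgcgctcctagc
The match begins 193 bases before the start site of Chac1, 110 bases before that of Nupr1, 200 bases before the second annotated start of Vldlr, and 15 bases past the RefSeq start of Trib3. The Nupr1 and Vldlr matches lie inside exons of the GENCODE annotation. Chac1, Nupr1 and Vldlr share the same 8 letters, and Trib3 differs from them at the letter that the motif leaves free. A match is a description of these letters and not evidence of binding.

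The other letters searched, on both strands, were CACGTG (an E-box, 7.15% of all windows), TGACNNNGC (the core of the antioxidant response element, 12.4%) and the endoplasmic reticulum stress element (0.119%). CACGTG stood in windows of Nupr1 and Gdf15, TGACNNNGC in those of Sesn2 and Stc2, and the stress element in 0 of the 10. The window of Ddit4 held none of the motifs searched. Among 26 genes of the anabolic side of the ATF4 program with a RefSeq window, TGATGNAA occurred in 11 of 30 windows, Asns, Pck2 and Slc1a4 among them. In the windows of structural relatives of the 9 genes it occurred in 0 of 11.

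Gene counts summed to between 16405296 and 25613961 per library, and 13453 genes had enough reads to be tested. Values are read counts relative to the library total (CPM), scaled between libraries by the TMM method of edgeR. A gene is called where the adjusted p of edgeR's quasi-likelihood test (Benjamini-Hochberg over the 13453 genes) is under 0.05. Slc12a9 itself, the check of the labels, had 44.8, 53.4 and 46.9 CPM with the safe guide, 62.5, 66.2 and 67.0 with sgRNA 11, and 48.2, 49.96 and 51.6 with sgRNA 15. Every sgRNA 11 library was above every safe library, the lowest at 1.17 times the highest safe one, which is opposite to the knockdown label. The sgRNA 15 libraries overlapped the safe ones. Slc12a9 was not called lower with either guide, so its mRNA gives no check of the knockdown. Directions given here are those of libraries labelled with a guide. All 15 macrophage markers had reads in every library. Their summed level was 8604 to 8783 CPM with safe sgRNA, 12895 to 13260 with sgRNA 11 and 10871 to 10991 with sgRNA 15. Markers of epithelial cells summed to at most 0.0557 CPM, with at least 5 of 6 at 0 in each library, and lymphoid markers to at most 0.362 CPM, with at least 6 of 9 at 0. Fibroblast markers, of which at least 5 of 8 were at 0, summed to 1.21 to 1.68 CPM with safe sgRNA, 1.95 to 2.51 with sgRNA 11 and 1.87 to 2.70 with sgRNA 15. Granulocyte markers, of which at least 3 of 7 were at 0, summed to 1.82 to 2.91, 3.17 to 4.09 and 3.66 to 4.11 CPM in the same order. The mitochondrially encoded share of gene counts was 1.63 to 1.76% with safe sgRNA, 1.43 to 1.53% with sgRNA 11 and 1.59 to 1.61% with sgRNA 15. This share and the macrophage, fibroblast and granulocyte sums moved with the guides, and their part in the results was not tested.

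Of the 9 genes, 7 were detected and 2, Vldlr and Stc2, had 0 reads in every library. Each of the 7 had at least 60 reads in each library, above the filter's minimum count of 10 in every group. The edgeR test called all 7 higher with sgRNA 11, where 33.3% of tested genes were called higher, and all 7 higher with sgRNA 15, where 32.2% were. Both comparisons use the same 3 safe libraries, so the second is not independent of the first. Both calls were made for 26% of tested genes, and all 6 guide libraries lay above all 3 safe libraries for 26.3% (34.3% with sgRNA 11 and 33.5% with sgRNA 15 taken alone). For the mean of both guides, the same test called the 7 higher as well (log2 1.59 to 2.94), where 34.7% of tested genes were. An increase of at least 1 on the log2 scale, which the 7 genes all reached with each guide, was called for 5.7% of tested genes with sgRNA 11 and 5.11% with sgRNA 15. Their log2 fold changes had a median of 1.71 with the first guide and 1.67 with the second, beside 0.01 over all tested genes with each guide. Summed over the 7, the level was 154 to 157 CPM in the safe libraries, 681 to 709 with sgRNA 11 and 643 to 669 with sgRNA 15. In bulk RNA, more cells with a transcript and more transcript per cell cannot be told apart.

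**Figure D1:**
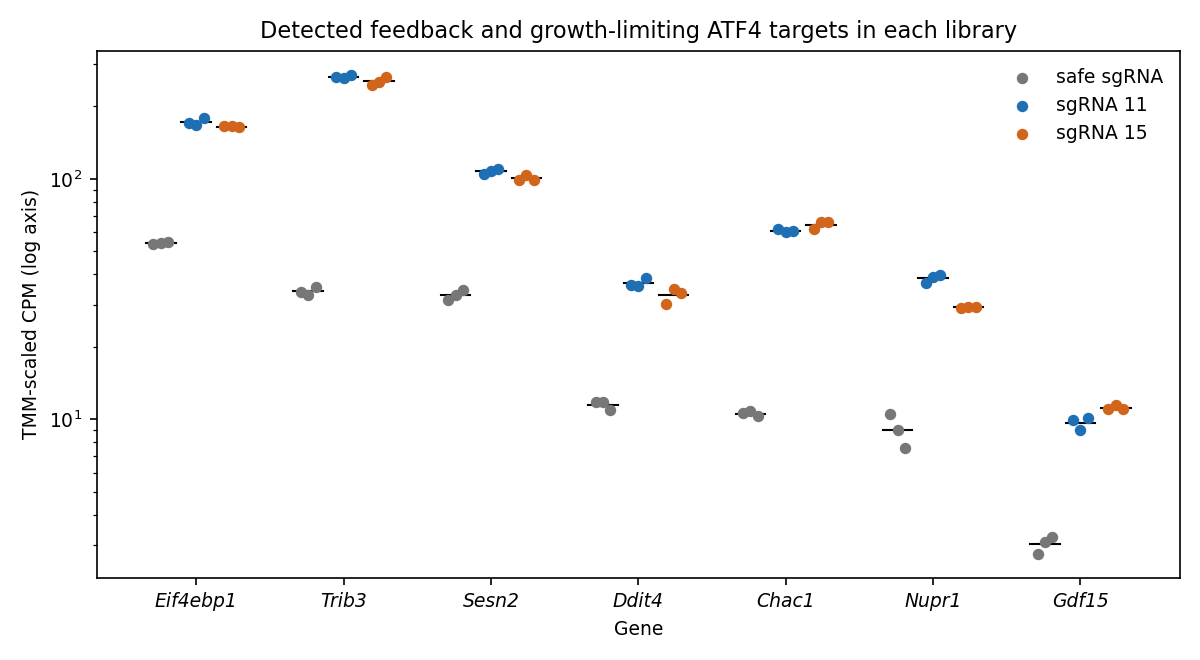
TMM-scaled CPM (log axis) of the 7 detected genes in each of the 9 libraries, with a point per library and a bar at the mean of each group. For every gene, all 6 libraries with an Slc12a9 guide lie above all 3 safe libraries, and the narrowest gap is that of Ddit4 with sgRNA 15, whose lowest library is 2.57 times the highest safe library.

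A pseudokinase gene and an enzyme gene of the feedback rose most. Trib3 (ENSMUSG00000032715, chromosome 2, 152337422 to 152344032, minus strand) encodes a pseudokinase that binds AKT and limits its activation, and that also restrains ATF4 itself. Its safe libraries read 33.7, 32.9 and 35.4 CPM, against 265, 262 and 271 for sgRNA 11 and 247, 253 and 266 for sgRNA 15. The safe libraries lay far below all others, while those of the guides overlapped each other. With sgRNA 11 it rose 7.83-fold (log2 2.97, SE 0.04, edgeR adjusted p = 1.52e-76), and with sgRNA 15 it rose 7.51-fold (log2 2.91, SE 0.04, edgeR adjusted p = 5.79e-76). Of the tested genes, 0.230% had a higher log2 fold change with sgRNA 11 and 0.260% with sgRNA 15.

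Chac1 (ENSMUSG00000027313, chromosome 2, 119351229 to 119354381, plus strand) encodes a gamma-glutamylcyclotransferase that cleaves glutathione, the main thiol antioxidant of the cell. Its values were 10.6, 10.8 and 10.3 CPM with safe sgRNA, 61.6, 59.9 and 60.6 with sgRNA 11, and 61.7, 65.9 and 65.9 with sgRNA 15. All guide libraries were above all safe libraries, and the lowest sgRNA 15 library was just above the highest sgRNA 11 library. Chac1 rose 5.75-fold with sgRNA 11 (log2 2.52, SE 0.06, edgeR adjusted p = 3.41e-54) and 6.10-fold with sgRNA 15 (log2 2.61, SE 0.06, edgeR adjusted p = 3.18e-55). A higher log2 fold change was found for 0.401% of tested genes with sgRNA 11 and 0.349% with sgRNA 15.

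Transcripts of the inhibitors that act on mTORC1 rose with both guides. The libraries measure RNA only, so their protein levels and mTORC1 activity were not tested. Ddit4, also known as REDD1 (ENSMUSG00000020108, chromosome 10, 59949669 to 59951834, minus strand), lowers mTORC1 activity through the TSC complex. It had 11.8, 11.8 and 10.9 CPM in the safe libraries, 36.1, 35.8 and 38.8 with sgRNA 11, and 30.3, 34.8 and 33.4 with sgRNA 15. The groups did not overlap, with sgRNA 11 highest and safe sgRNA lowest. Ddit4 rose 3.20-fold with sgRNA 11 (log2 1.68, SE 0.07, edgeR adjusted p = 1.25e-36) and 2.85-fold with sgRNA 15 (log2 1.51, SE 0.07, edgeR adjusted p = 6.75e-33). Sesn2 (ENSMUSG00000028893, chromosome 4, 132492032 to 132510501, minus strand) encodes sestrin 2, a leucine-binding protein that holds back mTORC1 through the GATOR complexes. Its libraries read 31.4, 33.0 and 34.4 CPM with safe sgRNA, 105, 108 and 109 with sgRNA 11, and 98.6, 104 and 98.7 with sgRNA 15. These groups did not overlap either, and came in the same order. Sesn2 rose 3.27-fold with sgRNA 11 (log2 1.71, SE 0.04, edgeR adjusted p = 2.51e-52) and 3.06-fold with sgRNA 15 (log2 1.61, SE 0.04, edgeR adjusted p = 4.70e-50).

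Eif4ebp1 (ENSMUSG00000031490, chromosome 8, 27260329 to 27276674, plus strand) encodes 4E-BP1, which binds the cap-binding protein eIF4E and blocks cap-dependent translation until mTORC1 phosphorylates it. It stood at 53.4, 54.1 and 54.9 CPM with safe sgRNA, 171, 167 and 179 with sgRNA 11, and 166, 165 and 164 with sgRNA 15. Every guide library was above every safe library, and every sgRNA 15 library was below every sgRNA 11 library. The gene rose 3.19-fold with sgRNA 11 (log2 1.67, SE 0.03, edgeR adjusted p = 7.04e-59) and 3.05-fold with sgRNA 15 (log2 1.61, SE 0.04, edgeR adjusted p = 2.60e-57). Its spread with sgRNA 15 was the smallest of any gene and group among the 7, with a coefficient of variation of 0.331%.

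Nupr1 (ENSMUSG00000030717, chromosome 7, 126623249 to 126630861, minus strand) encodes a small, disordered chromatin-associated protein of the stress response. It was the gene whose increase differed most clearly between the guides. Its values were 10.5, 8.99 and 7.60 CPM with safe sgRNA, 37.0, 39.1 and 39.7 with sgRNA 11, and 28.9, 29.2 and 29.4 with sgRNA 15. The 3 groups did not overlap, although the safe libraries had the widest spread of any group among the 7 genes, with a coefficient of variation of 16.2%. Nupr1 rose 4.21-fold with sgRNA 11 (log2 2.07, SE 0.08, edgeR adjusted p = 5.52e-41) and 3.18-fold with sgRNA 15 (log2 1.67, SE 0.08, edgeR adjusted p = 3.36e-33).

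The secreted products divided into 1 detected and 1 undetected gene. Gdf15 (ENSMUSG00000038508, chromosome 8, 70629393 to 70632456, minus strand) encodes a hormone of the TGF-beta superfamily that lowers food intake through its brainstem receptor. It was the least abundant of the 7, with 2.75, 3.08 and 3.24 CPM in the safe libraries, 9.89, 9.03 and 10.1 with sgRNA 11, and 11.0, 11.4 and 11.0 with sgRNA 15. These values rest on 69, 61 and 60 reads with safe sgRNA, 225, 162 and 224 with sgRNA 11, and 228, 272 and 182 with sgRNA 15. No library of a guide overlapped the safe libraries, and the sgRNA 15 libraries were above those of sgRNA 11. Gdf15 rose 3.23-fold with sgRNA 11 (log2 1.69, SE 0.13, edgeR adjusted p = 5.43e-21) and 3.71-fold with sgRNA 15 (log2 1.89, SE 0.13, edgeR adjusted p = 4.93e-24), with the largest standard errors among the 7. Gfral and Ret, which form its receptor, had 0 reads in every library.

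Stc2 (ENSMUSG00000020303, chromosome 11, 31357307 to 31370074, minus strand) encodes stanniocalcin 2, a secreted glycoprotein that inhibits the protease PAPP-A and so limits insulin-like growth factor release. Vldlr (ENSMUSG00000024924, chromosome 19, 27216484 to 27254231, plus strand) encodes a receptor for triglyceride-rich lipoproteins. Both had 0 reads in all 9 libraries, and no fold change is given for either. A floor of 3 reads corresponds to 0.117 to 0.183 CPM per library, and to 0.0160 CPM over the 187362433 gene counts of all libraries. The closest relative of Stc2 on the list of relatives, Stc1, was at 0 as well. These floors cover counting error only.

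Compared per kilobase of exon, the order of the 7 genes changed between safe sgRNA and the guides. The length used is that of all annotated exons of a gene merged, and which isoforms the cells used was not tested. With safe sgRNA the highest was Eif4ebp1 at 24.6 ± 0.327 CPM per kb (SD, n = 3), followed by Trib3 (15.5 to 16.6 over its libraries), Sesn2 (9.48 ± 0.421), Ddit4 (6.56 ± 0.276), Chac1 (6.45 ± 0.154), Nupr1 (3.60 ± 0.582) and Gdf15 (1.63 ± 0.133). Ddit4 and Chac1 overlapped there, and no other neighbours in the order did. With sgRNA 11 the order was Trib3 (125 ± 2.27 CPM per kb), Eif4ebp1 (78.5 ± 2.63), Chac1 (37.1 ± 0.501), Sesn2 (30.9 ± 0.682), Ddit4 (21.0 ± 0.929), Nupr1 (15.4 ± 0.568) and Gdf15 (5.23 ± 0.315). The same order held with sgRNA 15, from Trib3 (120.2 ± 4.73 CPM per kb) and Eif4ebp1 (75.2 ± 0.249) to Nupr1 (11.6 ± 0.0893) and Gdf15 (6.02 ± 0.134). On this length scale Trib3 thus passed Eif4ebp1, and Chac1 passed Ddit4 and Sesn2. Another length for a gene would scale its values alike in all groups, so the order and these crossings could differ. Averaged over all libraries, 8.33% of tested genes had a higher CPM than Trib3 and 67.7% a higher CPM than Gdf15.

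**Figure D2:**
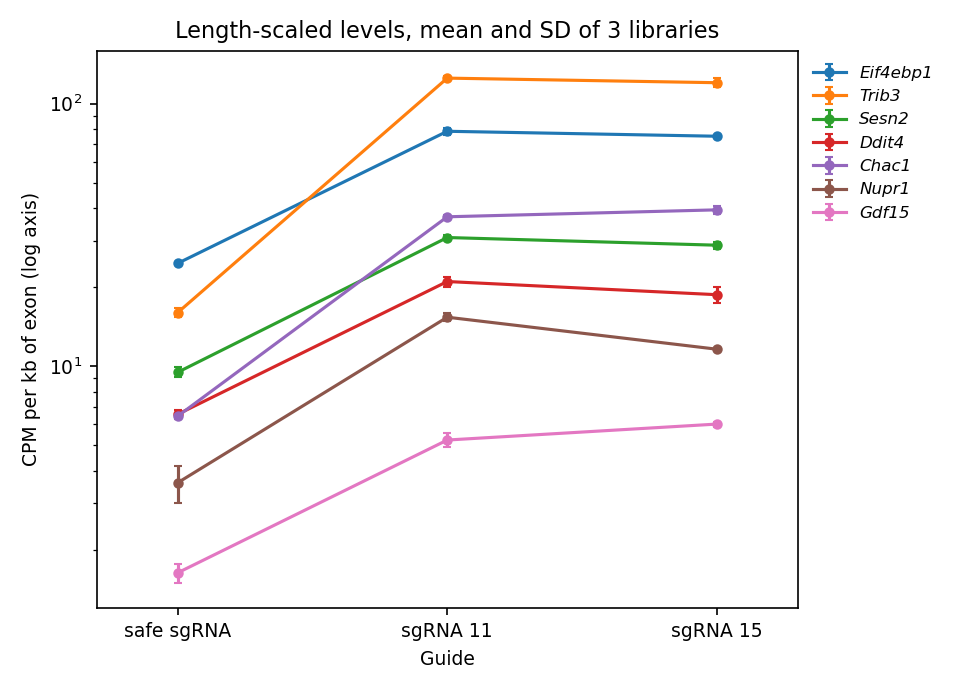
Level per kilobase of exon (CPM per kb, log axis) of the 7 detected genes in each group, as mean and SD of 3 libraries, with lines that join the groups for each gene. The line of Trib3 crosses that of Eif4ebp1, and the line of Chac1 crosses those of Ddit4 and Sesn2, between safe sgRNA and sgRNA 11. The height of each line depends on the length used, that of all annotated exons merged.

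The guides were then compared with each other. The edgeR test called 3 of the 7 genes lower with sgRNA 15 than with sgRNA 11, where 15.5% of tested genes were called lower, and 0 higher, where 18% were. At an unadjusted p under 0.05 the same test gave 5 lower and 0 higher, and DESeq2 and limma-voom each called 1 lower and 0 higher after adjustment. Nupr1 was lower by 0.40 on the log2 scale (-0.40, 95% interval -0.53 to -0.28, edgeR adjusted p = 1.33e-07), from a mean of 38.6 ± 1.43 to 29.2 ± 0.224 CPM (SD, n = 3). Ddit4 differed by -0.17 (95% interval -0.29 to -0.05, edgeR adjusted p = 0.0251). Sesn2 differed by -0.10 (95% interval -0.17 to -0.02, edgeR adjusted p = 0.0421). Among 18 other ways of processing the counts, the Nupr1 call was kept in all 18, that of Ddit4 in 13 and that of Sesn2 in 10. Correcting for GC content and transcript length moved Ddit4 to -0.08 and Sesn2 to -0.03, and neither was then called. Ddit4 was no longer called without sgRNA 11 replicate 3 (-0.13) or without sgRNA 15 replicate 1 (-0.12). Sesn2 lost its call without either of these (-0.09 each), without sgRNA 11 replicate 2 (-0.10) and without sgRNA 15 replicate 3 (-0.09).

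The remaining 4 were not called between the guides. The log2 difference of sgRNA 15 from sgRNA 11 was -0.06 for Trib3 (95% interval -0.12 to -0.0045, edgeR adjusted p = 0.0903), -0.06 for Eif4ebp1 (-0.12 to -0.0031, edgeR adjusted p = 0.101), 0.09 for Chac1 (-0.0049 to 0.18, edgeR adjusted p = 0.146) and 0.20 for Gdf15 (-0.0048 to 0.40, edgeR adjusted p = 0.133). The sign for Trib3 turned once GC content and transcript length were corrected for (0.02), and under that correction Chac1 (0.17) and Gdf15 (0.29) were called higher with sgRNA 15 and Eif4ebp1 (-0.08) lower. These intervals are not adjusted for the number of genes, and they are narrow for Trib3 and Eif4ebp1 and wide for Gdf15. Without safe replicate 1 both Trib3 (-0.07) and Eif4ebp1 (-0.07) were called lower with sgRNA 15, as were Trib3 without sgRNA 15 replicate 3 (-0.09) and Eif4ebp1 without sgRNA 11 replicate 2 (-0.09). Libraries of the guides did not overlap for Chac1, Gdf15, Ddit4, Sesn2, Nupr1 and Eif4ebp1, a separation that 22.8% of tested genes showed upward with sgRNA 15 and 20% downward.

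**Figure D3:**
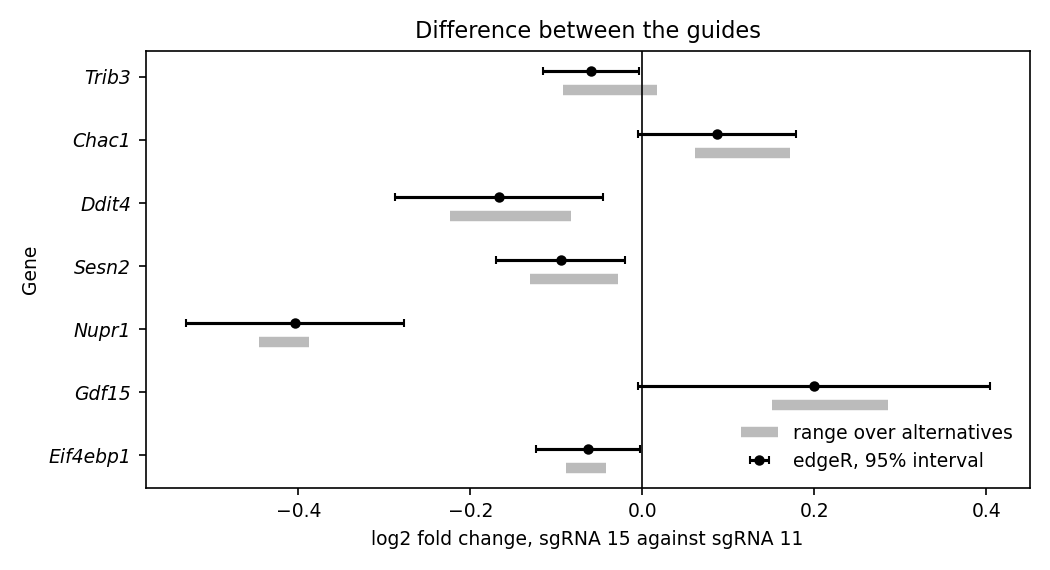
Log2 fold change of sgRNA 15 against sgRNA 11 for the 7 detected genes, with the 95% interval of edgeR (black) and the range over the alternative ways of processing (grey bars). Nupr1 at -0.40 is the gene whose interval and range both lie farthest from 0, and the range of Trib3 crosses 0.

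Paralogs and close relatives of the 9 genes did not move as a group. Of 11 relatives listed here, 7 had enough reads to be tested. With sgRNA 11, 3 were called higher, 1 lower (3 after the GC and length correction) and 3 not called, and with sgRNA 15, 2 were called higher, 3 lower and 2 not called. Of all tested genes, 33.3% were called higher and 32.4% lower with sgRNA 11, and 32.2% and 30.7% with sgRNA 15. The 2 relatives called higher with sgRNA 15 became 1 without safe replicate 1 or 2, without sgRNA 15 replicate 1, with DESeq2, with no filter on low counts and with a minimum mean of 5 CPM. Trib1, the paralog of Trib3 that targets C/EBP proteins for degradation, had 46.8, 48.8 and 44.1 CPM with safe sgRNA, 49.3, 41.9 and 46.0 with sgRNA 11, and 32.2, 30.7 and 31.3 with sgRNA 15. The first 2 groups overlapped (log2 -0.02, edgeR adjusted p = 0.721; called lower, at -0.15, with the GC and length correction), and Trib1 fell with sgRNA 15 (log2 -0.57, SE 0.06, edgeR adjusted p = 1.62e-15). Trib2 had 0 reads in every library.

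Of the other sestrins, Sesn3 rose with both guides as Sesn2 did, and Sesn1 did not. Sesn1, a p53-regulated sestrin, stood at 38.1, 40.9 and 39.3 CPM with safe sgRNA, 38.1, 36.0 and 38.9 with sgRNA 11, and 24.1, 25.8 and 23.3 with sgRNA 15. It was not called with sgRNA 11 (log2 -0.06, edgeR adjusted p = 0.331; -0.14 and called lower with the GC and length correction) and fell with sgRNA 15 (log2 -0.69, edgeR adjusted p = 5.55e-18). Sesn3, which FOXO factors regulate, had 4.83, 4.29 and 5.61 CPM with safe sgRNA, 12.4, 11.0 and 12.1 with sgRNA 11, and 11.8, 9.54 and 10.3 with sgRNA 15. Sesn3 rose with both guides (log2 1.28 and 1.10, edgeR adjusted p = 3.54e-17 and 8.05e-14), each by less than Sesn2 (log2 1.71 and 1.61), a gap between genes that was not tested.

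Eif4ebp2, the second 4E-BP, read higher than Eif4ebp1 per kilobase of merged exons with safe sgRNA (36.4 ± 0.603 against 24.6 ± 0.327 CPM per kb, SD, n = 3) and lower with sgRNA 11 (40.7 ± 0.724 against 78.5 ± 2.63) and sgRNA 15 (35.6 ± 0.627 against 75.2 ± 0.249). Which gene is higher within a group depends on that length. Eif4ebp2 had 210.3, 207 and 214 CPM with safe sgRNA, 238, 230.4 and 237 with sgRNA 11, and 208, 202 and 209 with sgRNA 15. It rose slightly with sgRNA 11 (log2 0.16, edgeR adjusted p = 2.27e-07) and was not called with sgRNA 15 (log2 -0.03, edgeR adjusted p = 0.310), except as lower with the GC and length correction (-0.12). Eif4ebp3 had 29 reads over all libraries and shares most of its exon length with another gene, so its counts are uncertain.

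Chac2, the paralog of Chac1, was near the lower end of what could be tested, with 0.878, 0.959 and 1.24 CPM with safe sgRNA, 1.32, 0.669 and 0.679 with sgRNA 11, and 1.78, 1.34 and 1.81 with sgRNA 15. It was not called with sgRNA 11 (log2 -0.17, edgeR adjusted p = 0.673) and was called higher with sgRNA 15 (log2 0.68, edgeR adjusted p = 0.0404). That call was lost without safe replicate 1 (0.57) or 2 (0.63), and without sgRNA 15 replicate 1 (0.61) or 3 (0.60). It was also lost with DESeq2 (0.68) and with no filter on low counts (0.68). Nupr1l, the paralog of Nupr1, had 1.197, 1.21 and 1.40 CPM with safe sgRNA, 2.51, 1.67 and 1.99 with sgRNA 11, and 2.60, 1.64 and 1.21 with sgRNA 15. It was called higher with sgRNA 11 (log2 0.71, edgeR adjusted p = 0.0128) and not with sgRNA 15 (log2 0.54, edgeR adjusted p = 0.0702). Without sgRNA 11 replicate 1 the first call was lost (0.55), and without sgRNA 15 replicate 3 it was called higher with that guide too (0.72). Ddit4l, the paralog of Ddit4, had 6 reads over all libraries.

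Unlike Vldlr, its relative Lrp8 was detected, and it fell. Lrp8, an apolipoprotein E receptor, had 89.1, 89.6 and 86.6 CPM with safe sgRNA, 25.8, 25.4 and 28.3 with sgRNA 11, and 44.1, 44.0 and 37.6 with sgRNA 15. The groups did not overlap. Lrp8 was 3.33-fold lower with sgRNA 11 (log2 -1.74, edgeR adjusted p = 9.75e-48) and 2.10-fold lower with sgRNA 15 (log2 -1.07, edgeR adjusted p = 8.94e-35).

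**Figure D4:**
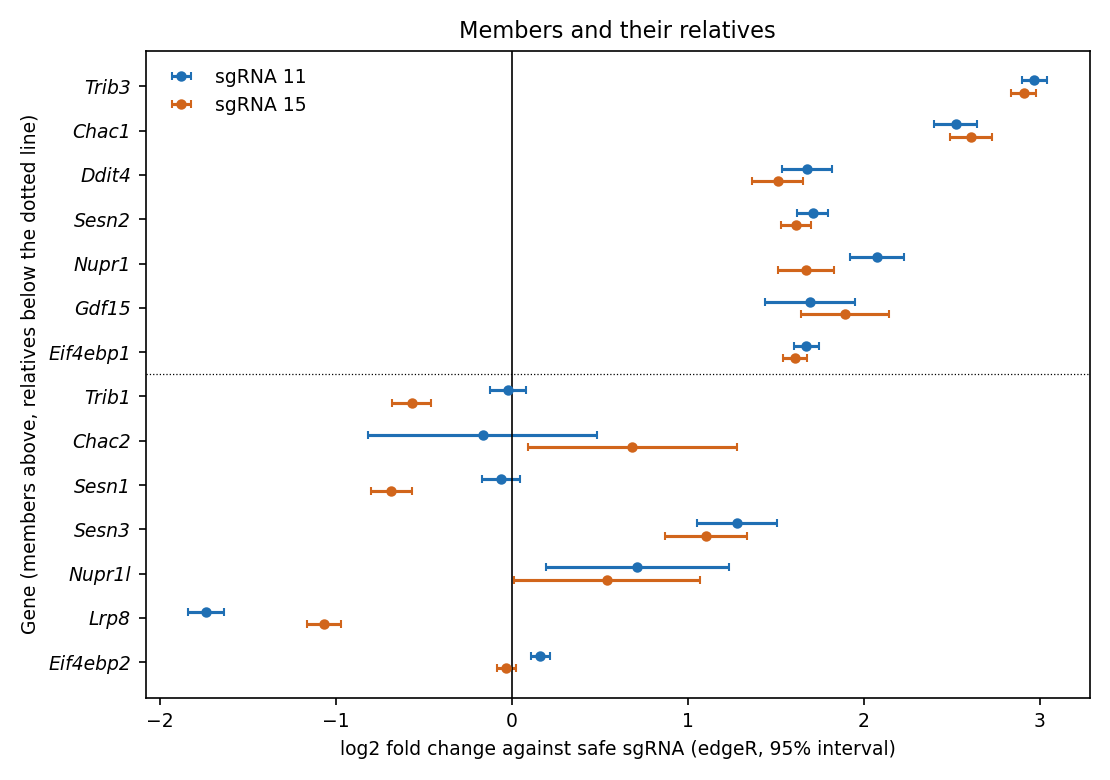
Log2 fold change against safe sgRNA with 95% interval (edgeR) for the 7 detected genes, above the dotted line, and their 7 tested relatives, below it, in blue for sgRNA 11 and orange for sgRNA 15. The 7 genes lie between 1.51 and 2.97, while the relatives spread from -1.74 to 1.28 on both sides of 0.

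The transcription factors of the response moved with these outputs, except Atf3. Of 6 tested factors, 5 were called higher and 1 lower with each guide, and their log2 fold changes had medians of 0.83 and 0.98 for sgRNA 11 and sgRNA 15. Atf4, the factor that the 9 genes are known to respond to, had 449, 453 and 456 CPM with safe sgRNA and rose to 729, 691 and 732 with sgRNA 11 (log2 0.66, SE 0.02, edgeR adjusted p = 4.86e-42) and to 824, 825 and 834 with sgRNA 15 (log2 0.87, SE 0.02, edgeR adjusted p = 2.21e-50). Cebpg, a C/EBP family partner of ATF4, rose by 1.00 and 1.09 on the log2 scale. Atf3, a factor also induced by many other stresses, fell from 164, 164 and 169.7 CPM, to 48.2, 41.4 and 46.8 for sgRNA 11 and 117, 119 and 122 for sgRNA 15. Its promoter window was the only one of the 7 windows of these factors that held TGATGNAA. Among 10 genes for eIF2 alpha, its kinases and its phosphatase, 3 were called higher and 5 lower with sgRNA 11, and 3 higher and 6 lower with sgRNA 15. With sgRNA 11 the GC and length correction gave 2 higher and 8 lower. The main counts of this list and of the factors stand beside 33.3% of all tested genes higher and 32.4% lower with sgRNA 11, and 32.2% and 30.7% with sgRNA 15. Eif2s1, which encodes eIF2 alpha, fell (log2 -0.81 and -0.60), as did the kinase PKR gene Eif2ak2 (-0.56 and -0.47), and the PERK gene Eif2ak3 rose (0.34 and 0.33).

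Beside the feedback and growth-limiting outputs, ATF4 drives amino acid transporters, synthetic enzymes and tRNA synthetases. Of 36 such genes 33 were tested. The edgeR test called 31 higher and 1 lower with sgRNA 11 (median log2 0.75), where 33.3% and 32.4% of all tested genes were. With sgRNA 15 it called 32 higher and 0 lower (median 0.78), where 32.2% and 30.7% were. The 1 called lower, Got1 (-0.35), was named after its values were seen, and 2 were called lower without safe replicate 1, sgRNA 11 replicate 3 or sgRNA 15 replicate 3, with only the groups compared, and after the GC and length correction. Pck2, the mitochondrial enzyme that makes phosphoenolpyruvate, rose by 2.41 and 2.26 on the log2 scale, and Nars, which charges the asparagine tRNA, by 1.06 and 1.13. With each guide, 8 of the 33 reached the log2 fold change of the lowest of the 7 detected genes. That gene was Eif4ebp1 at 1.67 with sgRNA 11 and Ddit4 at 1.51 with sgRNA 15. The 8 were Slc1a4, Pycr1, Pck2, Slc6a9, Asns, Cth, Slc7a11 and Gpt2 with both guides. They include amino acid transporters and enzymes of proline, asparagine, cysteine and alanine synthesis, and none of the tRNA synthetases. The 3 without enough reads were Phgdh, Aldh1l2 and Slc7a3.

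Genes for what these inhibitors act on did not share their direction as a group. Of 29 tested genes of mTORC1, its upstream regulators and AKT, 6 were called higher and 15 lower with sgRNA 11 (median log2 -0.09), and 8 higher and 12 lower with sgRNA 15 (median -0.04). These counts stand beside 33.3% called higher and 32.4% lower among all tested genes with sgRNA 11, and 32.2% and 30.7% with sgRNA 15. Rraga, a Rag GTPase that recruits mTORC1 to the lysosome, fell (log2 -0.84 and -0.58). Akt1, a kinase upstream of mTORC1, fell (-0.37 and -0.44). Rps6kb1, the S6 kinase that mTORC1 activates, fell as well (-0.57 and -0.45). Tsc2, a subunit of the complex through which Ddit4 acts and named after its values were seen, went from 95.4 ± 1.204 to 121 ± 2.86 and 116 ± 3.87 CPM (SD, n = 3 each; log2 0.34 and 0.29).

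Direct partners of the 9 gene products, such as binding proteins, ligands and enzymes of the same pathway, gave 5 called higher and 6 lower of 11 tested with sgRNA 11, and 5 and 5 with sgRNA 15 (3 higher without sgRNA 15 replicate 2 or 3). After the GC and length correction 3 were called higher with each guide and 6 lower, and DESeq2 also called 3 higher with sgRNA 15. Among all tested genes the main test called 33.3% higher and 32.4% lower with sgRNA 11, and 32.2% and 30.7% with sgRNA 15. The 4 of these partners with the smallest p over both guides include 3 that encode parts of the cap-binding complex, whose assembly 4E-BP1 blocks. Eif4e, the target of 4E-BP1, had 248, 253 and 245 CPM with safe sgRNA, 139.6, 134 and 128 with sgRNA 11, and 169, 159 and 164 with sgRNA 15 (log2 -0.90 and -0.60, edgeR adjusted p = 7.79e-44 and 2.26e-32). Eif4g1, the scaffold that competes with 4E-BP1 for eIF4E, fell from 939 ± 8.06 to 517 ± 12.5 and 544 ± 10.4 CPM (SD, n = 3 each; log2 -0.86 and -0.79). The helicase gene Eif4a1 fell as well (log2 -0.76 and -0.54). Eif4e is counted in this list and in the mTORC1 list. Per kilobase of merged exons, Eif4ebp1 was below Eif4e with safe sgRNA (24.6 ± 0.327 against 41.4 ± 0.647 CPM per kb, SD, n = 3) and above it with sgRNA 11 (78.5 ± 2.63 against 22.3 ± 0.994) and sgRNA 15 (75.2 ± 0.249 against 27.3 ± 0.882). Which gene is higher within a group depends on that length, while the opposite directions of the genes do not. On the glutathione side, Gclc, which catalyses the first step of glutathione synthesis, fell by 0.45 and 0.44 on the log2 scale.

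Several of the 9 genes also answer to other stress factors, so lists of targets of those factors were counted. Over all tested genes, 33.3% were called higher and 32.4% lower with sgRNA 11, and 32.2% and 30.7% with sgRNA 15. Chaperones and folding enzymes of the unfolded protein response gave 4 higher and 12 lower of 17 with sgRNA 11 and 4 higher and 11 lower with sgRNA 15, with Hspa5, the chaperone BiP, at -0.45 and -0.46 on the log2 scale. Targets of p53, which also induces Sesn2 and Gdf15, gave 9 higher and 5 lower of 18 with sgRNA 11 and 8 and 8 with sgRNA 15. Correcting for GC and length made the sgRNA 11 counts 9 higher and 9 lower. Among them Bbc3, which encodes the death-promoting protein PUMA, rose (log2 1.94 and 1.67), Cdkn1a, the cell cycle inhibitor p21, rose (0.80 and 0.36), and the kinase Plk2 fell (-2.50 and -0.995). Hypoxia targets, a class to which Ddit4 is also assigned, gave 6 higher and 9 lower of 17 with sgRNA 11 and 5 and 9 with sgRNA 15. Their log2 fold changes ran from -1.67 to 0.72 with sgRNA 11 (median -0.21) and from -2.14 to 2.46 with sgRNA 15 (median -0.12). Among them the glucose transporter Slc2a1 was lower (-0.91 and -0.86).

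Targets of NRF2, which can also induce Sesn2, gave 2 higher (1 after the GC and length correction) and 9 lower of 12 with sgRNA 11 and 2 and 8 with sgRNA 15. Gsr, which regenerates reduced glutathione, fell by 0.65 and 0.64 on the log2 scale. Glucocorticoid targets gave 4 higher and 4 lower of 9 with sgRNA 11 and 2 and 7 with sgRNA 15, with Tsc22d3, which encodes the leucine zipper protein GILZ, higher (2.00 and 1.92). Genes that answer to TFEB and MITF gave 6 higher and 3 lower of 13 with sgRNA 11 (median log2 -0.01) and 11 higher and 1 lower with sgRNA 15 (median 0.71). After the GC and length correction this list gave 5 higher and 6 lower with sgRNA 11, and 11 and 2 with sgRNA 15. The main counts of the NRF2, glucocorticoid and TFEB lists stand beside 33.3% of all tested genes higher and 32.4% lower with sgRNA 11, and 32.2% and 30.7% with sgRNA 15. Gpnmb, a transmembrane glycoprotein, was not called with sgRNA 11 (-0.08; -0.15 and called lower with the GC and length correction) and rose with sgRNA 15 (2.07).

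**Figure D5:**
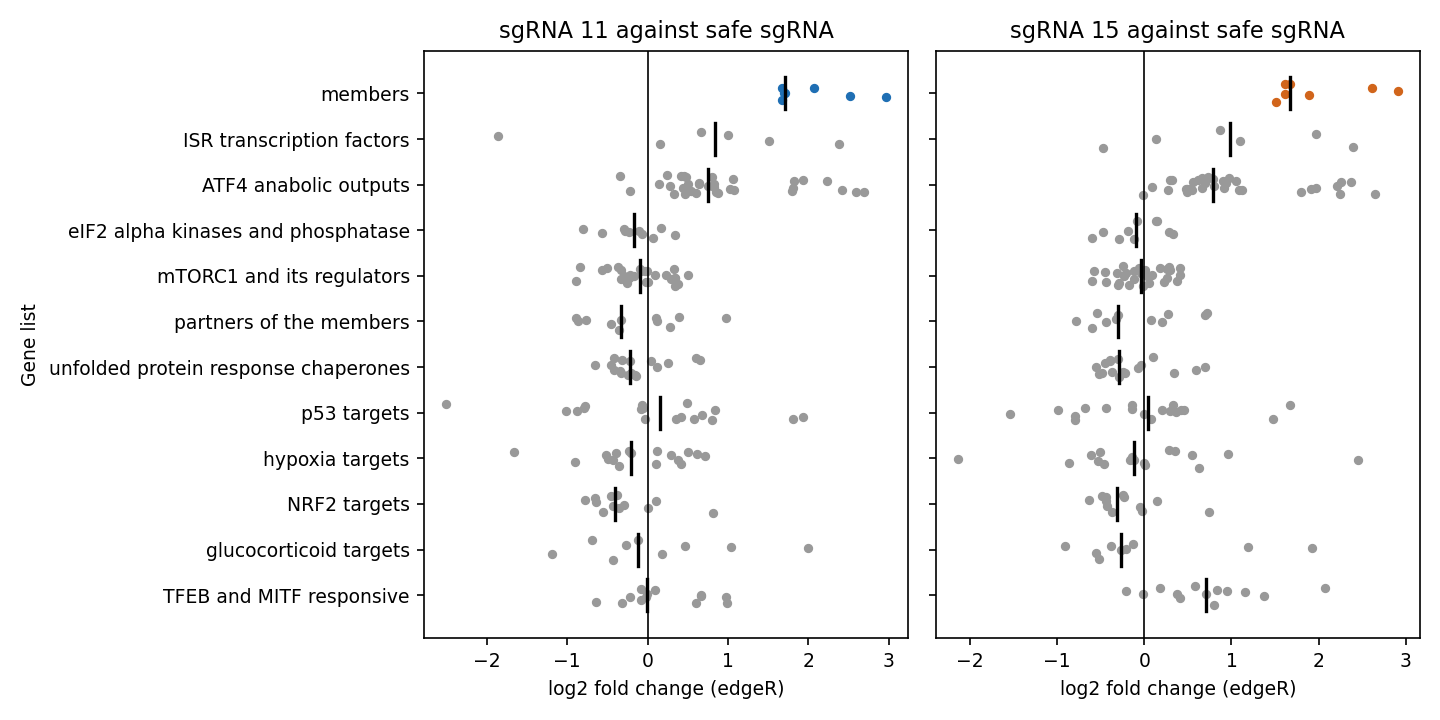
Log2 fold changes (edgeR) against safe sgRNA of the tested genes of each list, for sgRNA 11 (left) and sgRNA 15 (right). Each point is a gene, with a bar at the list's median. The row named members holds the 7 detected feedback and growth-limiting genes. Their medians are 1.71 and 1.67, those of the anabolic ATF4 outputs 0.75 and 0.78, and those of the other stress targets lie nearer 0, the TFEB and MITF list with sgRNA 15 (0.71) being the closest to the anabolic outputs.

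Genes with the most similar profile over the 9 libraries were found by the root mean square difference in log2 CPM from each of the 7, after centring on the safe libraries, among 9266 candidates. For 3 of the 7, the nearest gene was another of the 7. Eif4ebp1 and Sesn2 were nearest to each other (0.041), and Eif4ebp1 (0.086) and Sesn2 (0.094) were the nearest to Ddit4. Gtpbp2, a GTPase linked to ribosome rescue, came next for Eif4ebp1 (0.042) and Sesn2 (0.063). Trib3 was nearest to Soat2, a sterol O-acyltransferase (0.104), and to the ETS factor Etv1 (0.134). Chac1 was nearest to the amino acid transporter Slc1a4 (0.105) and to Atf5, a stress-induced transcription factor (0.141). Nupr1 was nearest to Fbxo32, a ubiquitin ligase subunit known from muscle wasting (0.142), and to the sialyltransferase St6gal1 (0.146). Gdf15 was nearest to the alanine transaminase Gpt2 (0.107) and to Tmem154 (0.130). These distances are descriptions over 9 libraries that share their controls.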

How the data were processed

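Poly(A)-selected, rRNA-depleted RNA of 9 J774A.1 libraries was sequenced, per the labels' protocols. The authors deposited read counts for each gene, made with STAR and HTSeq on mm10 per the submitters' processing notes. For the tool versions, the annotation, the strand option and the overlap mode, the answer is not given in the sources used here. Of all reads tallied, 79.3 to 80.7% fell in genes, and the tallies of unassigned reads stayed out of library sizes and tests. Of 55487 gene identifiers, 55227 had a symbol in GENCODE M21, from which positions and exon lengths came. For the length, the exons of all transcripts of a gene were merged. Promoter sequence is from RefSeq.

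Samples were grouped by the guide in their titles. The main test was that of edgeR 4.0.16 under R 4.3.3 (filterByExpr with minimum count 10, TMM, robust quasi-likelihood fit to all 9 libraries, 2-sided tests, Benjamini-Hochberg adjustment over 13453 genes in each of 4 contrasts). The biological coefficient of variation was 2.82%. Standard errors come from the F statistics, and 95% intervals use the fit's total degrees of freedom, unadjusted for the number of genes. The procedure was tested on simulated data.

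The 9 genes and all lists were chosen with earlier results of these data known, and a pair of listed genes is not reported here or counted in the lists. Named genes were the 9, Slc12a9, the relatives, the 2 nearest profiles per gene, and from each list the top 4 by p in the contrast of both guides with safe sgRNA; any other name was picked with its values in view. Tried beside this were DESeq2 1.42.0, voom from limma 3.58.1, other scalings and filters, a replicate block, fits restricted to a pair of groups, each library left out in turn and, chosen after seeing the data, offsets that correct for GC content and transcript length.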

Additional observations from a re-analysis of the deposited data

Results flagged for a closer look

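Some of the 7 detected genes and their relatives differed between the guides by a test of that difference. In the edgeR test of sgRNA 15 against sgRNA 11, 3 of the 7 were lower with sgRNA 15, Nupr1 by -0.40 on the log2 scale, Ddit4 by -0.17 and Sesn2 by -0.10. Of their relatives, the log2 difference was -0.55 for Trib1, -0.62 for Sesn1, -0.19 for Eif4ebp2, 0.85 for Chac2 and 0.67 for Lrp8. Sesn1 and Sesn2 were thus both lower with sgRNA 15, and Chac2 and Lrp8 were higher with it. The Chac2 call was lost with DESeq2 (0.86). It was also lost without sgRNA 11 replicate 2 (0.69) or 3 (0.67) and without sgRNA 15 replicate 1 (0.77) or 3 (0.78). The calls of Ddit4 and Sesn2 also depended on single libraries, and DESeq2 did not make them. Such a difference was called for 33.5% of tested genes. Slc12a9 itself differed between the guides in the same test (log2 -0.39), and its part in these differences was not tested.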

How the results depend on the processing

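All 7 detected genes kept their direction and their call against safe sgRNA in each of the 18 alternatives with sgRNA 11 and with sgRNA 15. Between the guides, the count of the 7 called lower with sgRNA 15 was 3, and it became 5 with a minimum mean of 5 CPM and with only the groups compared, and 1 with limma-voom and with DESeq2. Leaving out 1 library gave 1 to 5, with 5 without safe replicate 1, and 1 without sgRNA 11 replicate 3 or without sgRNA 15 replicate 1. The count called higher was 0, and 2 after the GC and length correction. Signs turned for values near 0: Trib3 between the guides (0.017, GC and length), Trib1 with sgRNA 11 (0.010 with library size only, 0.0016 with a minimum mean of 5 CPM, -0.073 to 0.034 when 1 library was left out, positive without sgRNA 11 replicate 2), Chac2 with sgRNA 11 (-0.58 to 0.0018 when 1 library was left out, positive without sgRNA 11 replicate 3), Slc12a9 with sgRNA 15 (-0.065 with GC and length, -0.016 to 0.11 when 1 library was left out, negative without safe replicate 1), Eif4ebp2 with sgRNA 15 (0.0057 with library size only) and Nupr1l between the guides (-0.52 to 0.015 when 1 library was left out, positive without sgRNA 15 replicate 3). The causes were not tested. Whether the replicate numbers pair the samples is not settled. Deviations of same-numbered libraries from their group means correlated by -0.00774 to 0.0576, and 3 of 9 libraries correlated best with their own number in both other groups. Correlations this weak cannot exclude a pairing. With the replicate block the calls were 4526 higher and 4414 lower with sgRNA 11, 4376 and 4174 with sgRNA 15, and 2511 and 2185 between the guides, and 3 of the 7 were again called lower with sgRNA 15. Depth sets the floor under which Vldlr and Stc2, at 0 reads, could not be seen, and it limits the precision of Gdf15. Why these 2 genes had 0 reads was not tested.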
